A study of Caenorhabditis elegans with 4 samples.

Results

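Peaks on the X chromosome were examined in ChIP-seq (chromatin immunoprecipitation and sequencing) of NHR-237 in the nematode Caenorhabditis elegans. Members were all deposited peaks whose chromosome is X, which gave 6005 of 30000 peaks in ChIP replicate 1, 5922 of 30000 in ChIP replicate 2 and 26 of 89 in the authors' combined list. Both replicate lists hold exactly 30000 peaks, and the sources used here do not say how that length was set. A late peak is therefore not taken here as a binding site. Within a list, peaks were ordered by the number that the authors put in each peak's name, where 1 is the first. Chromosomes I to V, the 5 autosomes, were the comparison.

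The 2 ChIP samples and their 2 input samples came from L3 larval hermaphrodites of strain OP228, grown at 20 °C. All 4 samples share its genotype: the allele unc119(ed3) and the transgene wgIs228, introduced by bombardment, which carries nhr-237 joined to the TY1, EGFP and FLAG tags as well as a copy of unc119. The tagged protein was collected with anti-GFP antibodies, and the input samples are DNA of the same lysates without this step. No peak list of an input sample and no strain without the tag was used here, so binding by NHR-237 cannot be told apart from DNA that an anti-GFP precipitate of any strain would recover. Whole larvae were used, so a peak cannot be assigned to a tissue. Nothing in the labels says that the 2 replicates came from separate cultures, and differences between them may be technical.

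Nuclear hormone receptors are transcription factors that bind DNA through zinc fingers and can respond to small lipophilic ligands. The family is much enlarged in nematodes, and many of its members in C. elegans have no known ligand. In hermaphrodites the X chromosome is as abundant as each autosome, and its transcription is lowered by the dosage compensation complex, a condensin-containing assembly that loads at recruitment sites scattered along X and spreads from them. No list of those recruitment sites was used here, and the genes at the peak positions were not analysed, since no annotation of the files' WS220 build was used here.

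The first peaks of both lists lay mostly on X, and the share of X was far lower further down the order. Among peaks numbered 1 to 20, 15 of 20 were on X in replicate 1 and 15 of 20 in replicate 2 (75% each, exact 95% Clopper-Pearson interval 50.9 to 91.3), against the 17.7% of the genome span that X makes up. Numbers 2 and 19 of replicate 2 overlap on X, with midpoints 204 bp apart, and the interval counts them as separate peaks. All of the first 10 peaks of replicate 1 were on X, and 9 of the first 10 in replicate 2. The earliest autosomal peak had number 11 in replicate 1, on chromosome II, and number 9 in replicate 2, on chromosome III. Intervals of this kind cover counting error only, because the peaks of 1 list share 1 library and are not replicates. The depth behind each list is unknown.

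After number 20 the replicates differed. Of peaks 21 to 50, 13 of 30 were on X in replicate 1 (43.3%, interval 25.5 to 62.6) but 3 of 30 in replicate 2 (10.0%, interval 2.11 to 26.5). From number 51 on, X held between 16.0% and 29.0% of each range examined, and peaks above 5000 stood at 19.7% in replicate 1 and 19.4% in replicate 2. The share was thus far above that of the span in both replicates at the very start, and in replicate 1 but not replicate 2 between 21 and 50. These ranges were chosen after the values were seen.

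**Figure D1:**
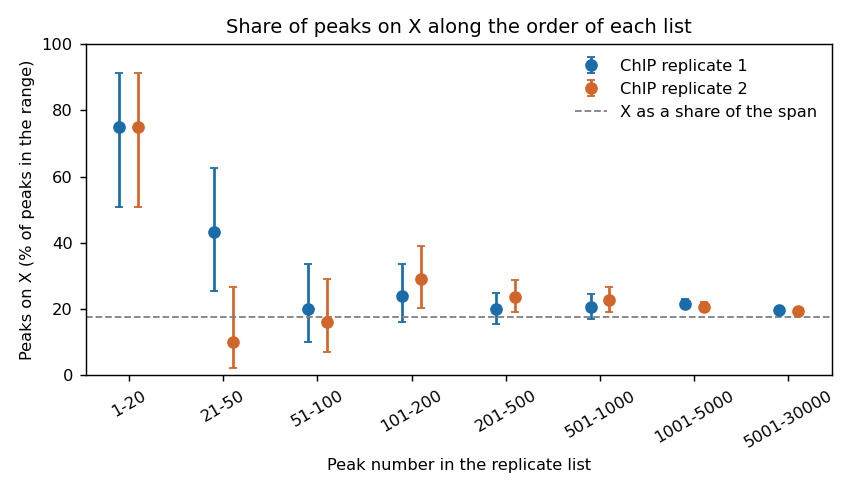
Share of peaks on X (vertical axis, percent) in ranges of peak number (horizontal axis) for ChIP replicates 1 and 2, with exact 95% Clopper-Pearson intervals; the dashed line is the share of X in the genome span. Both replicates start at 75% for numbers 1 to 20, and they part at 21 to 50, where replicate 1 has 43.3% and replicate 2 has 10.0%.

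Peaks were grouped into a first class (numbers 1 to 100), a second class (above 100, up to 1000) and a late class (above 1000), and in each of them X was denser than every autosome in both replicates. In the first class, X held 38 peaks in replicate 1 and 26 in replicate 2, or 2.14 and 1.47 peaks per Mb. The 5 autosomes ranged from 0.655 to 0.871 peaks per Mb in replicate 1 and from 0.669 to 1.45 in replicate 2, where chromosome III came close to X with 20 peaks. In the second class, X held 187 peaks in replicate 1 (10.6 per Mb) and 213 in replicate 2 (12.0 per Mb), against 7.51 to 10.0 and 7.57 to 9.36 per Mb on the autosomes. In the late class it held 5780 and 5683 peaks, or 326 and 321 per Mb, against 266 to 298 per Mb on the autosomes in replicate 1 and 271 to 300 in replicate 2.

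These density differences were set against the spread between chromosomes, the unit that the comparison concerns. In an exact permutation test over the 6 chromosomes (two-sided), X lay farther from the mean of the other 5 than any autosome did in all 6 combinations of class and replicate (p = 0.167 in each, Benjamini-Hochberg adjusted p = 0.222 over 16 such comparisons). That p is the smallest that 1 chromosome against 5 can give, so none of these comparisons can pass a threshold of 0.05. X was thus first in rank each time, with no test that could call it.

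The 26 combined peaks on X include the first 14 of the combined list, and each was traced to its peaks in both replicates. Where several replicate peaks overlapped a combined peak, the lowest number was taken. Combined peak 1, at X:11093919-11094438 on the WS220 build, matched number 1 in replicate 1 and number 4 in replicate 2, with replicate midpoints 4 bp apart. Combined peak 2, at X:9465540-9466059, matched number 2 in both lists, also 4 bp apart. Combined peak 3, at X:13700551-13701070, was number 3 in both, 38 bp apart. These 3 positions therefore held nearly the same place in both orders, 2 of them in the middle and the last in the right of 3 equal parts of X.

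The next peaks kept early numbers in both lists with some exchange of order. Combined peak 4, at X:6296308-6296827, was number 10 in replicate 1 and number 1 in replicate 2, and its replicate midpoints coincided at 0 bp. Combined peak 5, at X:16056285-16056804, was number 8 in replicate 1 and 6 in replicate 2, 23 bp apart. Combined peak 6, at X:2996894-2997413, was 12 in replicate 1 and 7 in replicate 2, 48 bp apart, the widest distance among combined peaks 1 to 14. All 3 had lower numbers in replicate 2.

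Replicate 1 placed several others earlier. Combined peak 7, at X:806430-806949, was number 4 in replicate 1 and 17 in replicate 2, 34 bp apart. Combined peak 8, at X:14525614-14526133, was 7 in replicate 1 and 20 in replicate 2, 4 bp apart. Combined peak 9, at X:5429312-5429831, was 6 in replicate 1 and 13 in replicate 2, 10 bp apart. Replicate 1 held a second early peak at this last region, number 37, whose midpoint lay 246 bp from that of number 6.

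Among the other 5 peaks tied at the highest score, the order again differed by replicate. Combined peak 10, at X:4208998-4209517, was number 13 in replicate 1 and 5 in replicate 2, 5 bp apart. Combined peak 11, at X:1344806-1345325, was 5 in replicate 1 and 23 in replicate 2, 11 bp apart. Combined peak 12, at X:8036157-8036676, was 18 in replicate 1 and 8 in replicate 2, 41 bp apart. The remaining ones stood near each other in order. Combined peak 13, at X:11937208-11937727, was 15 in replicate 1 and 10 in replicate 2, 16 bp apart. Combined peak 14, at X:1626872-1627391, was 9 in replicate 1 and 11 in replicate 2, 4 bp apart. Across combined peaks 1 to 14, which are those at the list's maximum score, numbers ran from 1 to 18 in replicate 1 and from 1 to 23 in replicate 2, and the median distance between replicate midpoints was 10.5 bp, within peaks 490 and 480 bp wide.

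The 12 combined X peaks under the maximum score did not hold such even places. Combined peaks 18 and 49, at X:16929638-16930157 and X:16929844-16930363, overlapped each other and the same 3 replicate 1 and 2 replicate 2 peaks. The lowest numbers among these were 47 in replicate 1 and 12 in replicate 2, with midpoints 215 bp apart, while the nearest midpoints belonged to numbers 1443 and 12 for combined peak 18 and to 7449 and 358 for combined peak 49. The 26 peaks thus cover 25 separate regions. Combined peak 27, at X:12362877-12363396, was number 87 in replicate 1 and 27 in replicate 2.

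Most of the others came early in replicate 1 only. Combined peak 21, at X:1909297-1909816, was number 26 in replicate 1 and 204 in replicate 2. Combined peak 22, at X:1199823-1200342, was 24 in replicate 1 and 236 in replicate 2. Combined peak 31, at X:1389251-1389770, had the widest split of this kind, 17 in replicate 1 and 1278 in replicate 2. Numbers were also lower in replicate 1 for combined peak 45, at X:410046-410565, with 38 in replicate 1 and 180 in replicate 2. Combined peak 82, at X:2194690-2195209, was 95 in replicate 1 and 569 in replicate 2. All 5 of these regions lie in the left part of X.

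A few entered the combined list without a number under 100 in replicate 1. Combined peak 51, at X:6742242-6742761, was number 209 in replicate 1 and 695 in replicate 2. Combined peak 66, at X:2640319-2640838, was 122 in replicate 1 and 2518 in replicate 2. Combined peak 70, at X:2728315-2728834, was 264 in replicate 1 and 601 in replicate 2. In the opposite direction, combined peak 79, at X:14508575-14509094, was 1404 in replicate 1 and 69 in replicate 2. Midpoint distances over the 12 had a median of 79.5 bp and ran from 14 to 215 bp.

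Over the whole combined list, X peaks came from earlier replicate peaks than autosomal ones, in large part through the 14 at the maximum score. The median matching number was 16 in replicate 1 and 15 in replicate 2 for the 26 peaks on X, against 212 and 172 for the 63 on the autosomes. Those 14 X peaks ran from 1 to 18 in replicate 1 and from 1 to 23 in replicate 2. The other 12 X peaks ran from 17 to 1404 and from 12 to 2518, and the autosomal ones from 11 to 10208 and from 9 to 8984. Whether the 12 differ from the autosomal peaks was not tested. Numbers of 100 or less in both replicates were held by 17 of 26 on X (65.4%) and by 12 of 63 on the autosomes (19.0%). Combined peaks 18 and 49 share their matches, and counting them once gave 16 of 25 regions on X. On X, 3 of 26 matched a peak numbered above 1000 in at least 1 replicate, and on the autosomes 17 of 63 did. Taking the replicate peak with the nearest midpoint in place of the lowest number gave 5 of 26 on X and 19 of 63 on the autosomes above 1000, and 15 of 26 and 12 of 63 within 100 in both. Position was not tighter on X as a whole: replicate midpoints lay within 50 bp for 16 of 26 X peaks (61.5%) and 44 of 63 autosomal ones (69.8%). The combined list rests on these same libraries, so the values describe it and were not tested.

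**Figure D2:**
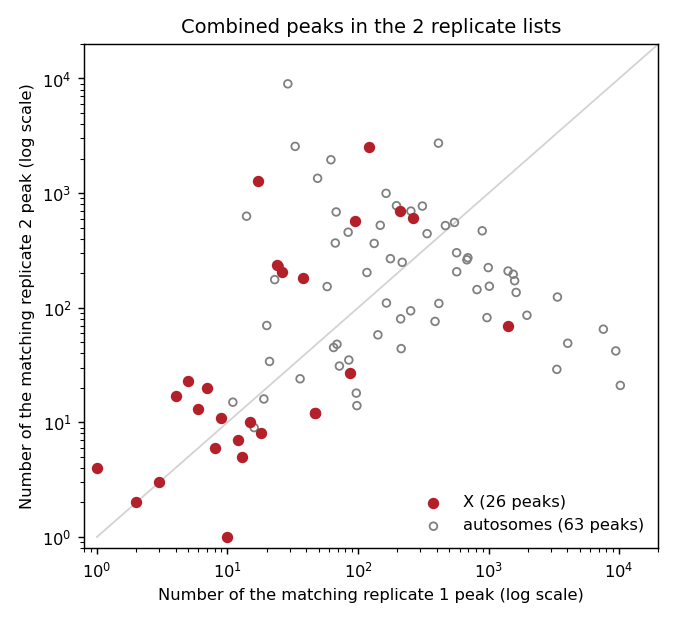
Peak number in replicate 1 (horizontal, log scale) and in replicate 2 (vertical, log scale) of the lowest-numbered replicate peak matching each combined peak, with 26 peaks on X as filled points and 63 on the autosomes as open ones; the line marks equal numbers. A group of 14 X peaks lies within number 18 in replicate 1 and 23 in replicate 2, and 3 X peaks go past 1000 in 1 of the replicates.

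The combined X regions were spread over much of the chromosome, with more in the left of its 3 equal parts. Of the 25 regions, 13 lay in the left part, 5 in the middle and 7 in the right. The 14 at the maximum score were more even, with 6, 4 and 4, and the other 12 peaks had 7, 1 and 4. Combined peaks fell in 13 of 18 windows of 1 Mb and were absent from the other 5. The window from 1000001 to 2000000 held the most, 5 peaks, and the next window held 4. Starts of neighbouring regions were separated by a median of 0.446 Mb, from 17 kb to 1.63 Mb.

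Replicate peaks were not crowded around the combined X peaks. Within 5 kb of a combined midpoint, a reach chosen after the data were seen, the 14 leading peaks had a median of 4 X peaks in replicate 1 (1 to 6) and 4 in replicate 2 (2 to 7), the matching peak included. The 12 others had medians of 4 and 4.5. At the mean density of X, a 10 kb stretch holds 3.39 replicate 1 peaks and 3.34 replicate 2 peaks.

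In both replicates, X peaks numbered 1 to 100 were in the combined list more often than autosomal ones, through the first 20 peaks of each list. In replicate 1, 22 of 38 X peaks overlapped a combined peak (57.9%, exact 95% interval 40.8 to 73.7), against 24 of 62 on the autosomes (38.7%) and 46.0% of all 100. In replicate 2 it was 18 of 26 (69.2%, interval 48.2 to 85.7), against 24 of 74 on the autosomes (32.4%) and 42.0% of all 100. The interval of the X share includes 46.0% in replicate 1, and in replicate 2 its lower bound is above 42.0%. The lowest number outside the combined list was 22 on X and 30 on the autosomes in replicate 1. In replicate 2 it was 26 on X and 22 on the autosomes. All of the first 20 peaks of each replicate, 15 on X and 5 on the autosomes, were therefore in the combined list. They raise the X share more. Among numbers 21 to 100, a split made after the values were seen, 16 of 23 X peaks and 38 of 57 autosomal peaks of replicate 1 were outside it. In replicate 2 it was 8 of 11 on X and 50 of 69 on the autosomes. Without the first 20, X peaks were thus in the combined list about as often as autosomal ones, on few X peaks. Because entry into the combined list depends on the replicate lists themselves, no test was made.

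Early peaks outside the combined list mostly met late peaks of the other replicate or none, on X as on the autosomes. Replicate 1 had 16 such peaks among its first 100, of which 6 met no replicate 2 peak and 10 met peaks numbered from 1252 to 22925. Replicate 2 had 8, of which 2 met none and 6 met peaks numbered from 1372 to 29129. On the autosomes 11 of 38 such peaks in replicate 1 and 18 of 50 in replicate 2 met none, and 26 of 27 and 31 of 32 matches were numbered above 1000. The first in replicate 1 was number 22, at X:2364683-2365172, which met number 11378 of replicate 2. Number 27, at X:17544209-17544698, and number 41, at X:3673206-3673695, met no replicate 2 peak. Each of these was thus early in replicate 1 alone.

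The remaining named ones gave the same picture. Number 28 of replicate 1, at X:14818537-14819026, met number 1252, and number 42, at X:13862192-13862681, met number 12653. In replicate 2 the first was number 26, at X:2001380-2001859, which met number 29129 of replicate 1. Number 56, at X:4395188-4395667, met number 17695, and number 61, at X:3100521-3101000, met number 1372. Number 66, at X:17371250-17371729, met no replicate 1 peak, and number 83, at X:16855082-16855561, met number 4159. None of these 10 had a partner within the first 1000 of the other replicate. Entry into the combined list depends on the replicate lists. Early peaks outside it may thus lack early partners through the way they were chosen, which was not tested.

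Recurrence between replicates, meaning that a peak shares at least 1 bp with a peak of the other list, fell with the peak number on X. In the first class, 32 of 38 X peaks of replicate 1 recurred (84.2%, exact 95% interval 68.7 to 94.0; 83.0% of all 100 peaks) and 24 of 26 of replicate 2 (92.3%, interval 74.9 to 99.1; 80.0% of all 100). In the second class, 118 of 187 recurred in replicate 1 (63.1%, interval 55.8 to 70.0; 62.9% of all 900) and 131 of 213 in replicate 2 (61.5%, interval 54.6 to 68.1; 63.3% of all 900). In the late class, 2743 of 5780 recurred in replicate 1 (47.5%, interval 46.2 to 48.8; 45.2% of all 29000) and 2740 of 5683 in replicate 2 (48.2%, interval 46.9 to 49.5; 45.1% of all 29000). In the first 2 classes the share of all peaks lies within the interval of the X share.

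Against the autosomes, the X share was higher in the late class, by an amount that depended on the matching rule. There the X share exceeded that of the pooled autosomes by 2.83 points in replicate 1 (95% Newcombe interval 1.40 to 4.27) and by 3.86 points in replicate 2 (2.41 to 5.31). With midpoints required to lie within 100 bp, the difference was 0.81 points in replicate 1 (-0.39 to 2.04) and 1.18 points in replicate 2 (-0.03 to 2.42), intervals that include 0. These intervals treat peaks as separate although some overlap others of their own list, so they are too narrow. With 1 shared bp X was also above each autosome, whose shares ran from 43.7% to 45.4% in replicate 1 and from 42.7% to 45.5% in replicate 2 (two-sided exact permutation over 6 chromosomes, p = 0.167, the smallest possible, adjusted p = 0.222). X is also the chromosome that the lists cover most, at 15.5% in replicate 1 and 15% in replicate 2, against 12.6% to 14.1% and 12.6% to 13.9% on the autosomes, and the part of this coverage in the higher recurrence was not tested. In the first class the difference was 1.95 points in replicate 1 (interval -14.5 to 16.0) and 16.6 points in replicate 2 (-1.81 to 28.9), and in the second class it was 0.27 points (-7.65 to 7.78) and -2.40 points (-9.95 to 4.87). Those 4 intervals include 0.

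**Figure D3:**
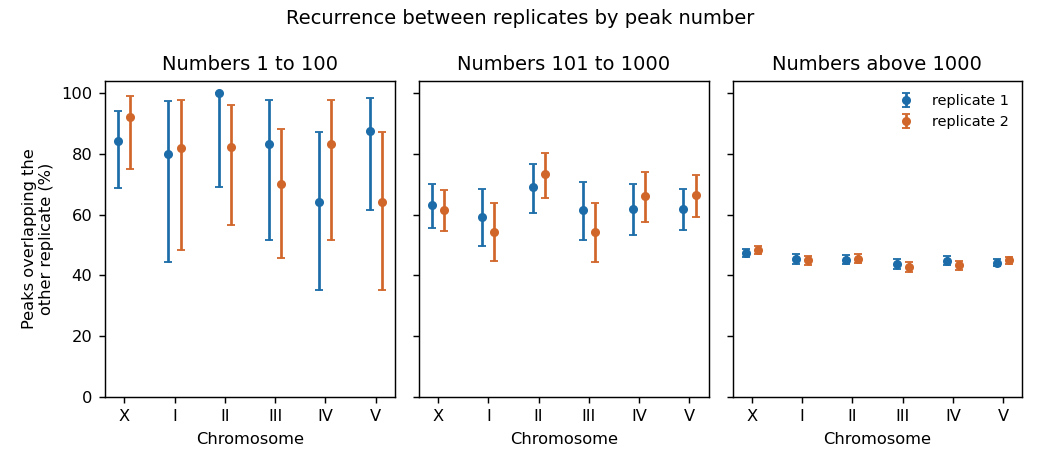
Share of peaks that overlap a peak of the other replicate (vertical axis, percent) by chromosome, in panels by peak number, for ChIP replicates 1 and 2 with exact 95% Clopper-Pearson intervals. On X the share steps down from 84.2% and 92.3% in the first class to 47.5% and 48.2% in the last, and only in the last class do the X points stand above those of every autosome in both replicates.

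Partners of the first X class stood earlier in the other list than those of the autosomes, through the first 20 peaks of each list. X peaks numbered 1 to 100 in replicate 1 met replicate 2 peaks with a median number of 25 (quartiles 9.5 and 3299), whereas the autosomal ones met a median of 2396. From replicate 2 the medians were 12.5 on X (quartiles 5.75 and 1380) and 4244 on the autosomes. Where a peak met several, the lowest number was taken. Numbers of 100 or less in both lists were reached by 17 of 38 X peaks of replicate 1 (44.7%) and 17 of 26 of replicate 2 (65.4%), against 12 of 62 (19.4%) and 12 of 74 (16.2%) on the autosomes. Of the first 20, 13 of 15 X peaks of replicate 1 and 14 of 15 of replicate 2 met one of the first 20 of the other list, as did 3 of 5 autosomal peaks in each replicate. Among numbers 21 to 100, a split made after the values were seen, a partner within the first 100 was held by 3 of 23 X peaks of replicate 1 (13.0%) and 2 of 11 of replicate 2 (18.2%), against 8 of 57 (14%) and 7 of 69 (10.1%) on the autosomes. Beyond number 20 the X and autosomal shares were thus similar in replicate 1 and rest on few peaks in replicate 2.

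This difference did not extend to later classes. X peaks of the second class met peaks with a median number of 8212 from replicate 1 and 8451 from replicate 2, against 7970 and 9021 on the autosomes. The lowest-numbered partner was of the same class for 8 of 187 X peaks of replicate 1 (4.28%) and 8 of 213 of replicate 2 (3.76%). On the autosomes it was so for 7.15% and 7.13% of peaks. Most X regions of middle rank in 1 replicate were therefore late in the other, or absent from it. These medians carry no test, since partners are drawn from 1 pair of libraries.

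Spacing on X was described as the distance from a peak's midpoint to the next in the same class. For numbers 1 to 100 the median was 396 kb in replicate 1 (38 peaks) and 569 kb in replicate 2 (26 peaks), against medians per autosome from 426 to 938 kb and from 345 to 977 kb. No gap on X in this class exceeded 1.49 Mb in replicate 1 or 1.74 Mb in replicate 2, while the largest gap on every autosome was at least 2.93 Mb in replicate 1 and 2.19 Mb in replicate 2. Gaps were not adjusted for the number of peaks, which was higher on X than on any autosome. Close neighbours were rare: a single pair in each replicate lay within 1 kb, numbers 6 and 37 in replicate 1 and numbers 2 and 19 in replicate 2, the last 204 bp apart. That is 1 of 37 X gaps in replicate 1 and 1 of 25 in replicate 2, against 1 of 57 and 0 of 69 autosomal gaps. Early X peaks were thus dispersed, and their median gap was below that of every autosome in replicate 1 but above that of chromosome III, at 345 kb, in replicate 2.

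In the second class the median X gap was 63.3 kb in replicate 1 and 47.9 kb in replicate 2, shorter than on any autosome (65.0 to 84.9 kb and 67.5 to 102 kb). Above 1000 it was 2.17 kb in replicate 1 and 2.18 kb in replicate 2, again below the autosomal medians of 2.31 to 2.49 kb and 2.22 to 2.42 kb. In this class 23.6% of X gaps in replicate 1 and 23.0% in replicate 2 were under 1 kb, and 21.9% and 22.4% of autosomal gaps. When overlapping peaks were merged, the 6005 and 5922 X peaks formed 5110 and 5095 regions.

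The class bounds cut through a continuous order. On X the last peaks within the first 100 were number 95 in replicate 1, at X:2194705-2195194, and number 99 in replicate 2, at X:10034732-10035211, and both recurred. The next were number 103, at X:15555964-15556453, which recurred, and number 102, at X:17483851-17484330, which did not. At the second bound, number 998 of replicate 1, at X:17037417-17037906, recurred and number 1002, at X:9146344-9146833, did not. In replicate 2, number 994, at X:3627980-3628459, and number 1002, at X:16545971-16546450, both recurred.

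Along X the full lists were nearly flat, apart from a thinner left end. Windows of 1 Mb, the last of which is cut to 0.718 Mb by the end of the span, held a median of 339 peaks per Mb in replicate 1 (262 to 374) and 345 in replicate 2 (242 to 379). The first window, from 1 to 1000000, had the fewest in both, 262 and 242. Windows with the most differed, 6000001 to 7000000 in replicate 1 with 374 and 3000001 to 4000000 in replicate 2 with 379. All windows but the first exceeded the pooled autosomal density, 291 per Mb in replicate 1 and 292 in replicate 2. The window densities of the 2 replicates had a Pearson r of 0.69 and a Spearman rho of 0.18 over 18 windows. Without the first and last window r was 0.24, so that the likeness rests on 1 or both of them. They were left out together, and the last held 316 and 336 peaks per Mb, closer to the medians than the first.

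Fewer peaks in the first Mb were not seen on X alone. In replicate 1 the first Mb held 244 peaks on I, 256 on III, 264 on IV and 284 on V, each below the mean of the rest of its chromosome, and 317 on II, which was above it. At the right end the last Mb of X held 320 peaks in replicate 1, against 345 per Mb between the ends, and 344 in replicate 2, against 339. The left end was therefore the sparse one on X.

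Early peaks were present in nearly every window. Numbers 1 to 100 occurred in all 18 windows in replicate 1, with 1 to 5 peaks each, and were missing from 2 windows in replicate 2, where the others had up to 3. In replicate 1 the most, 5, lay in 1000001 to 2000000, the window that also held most combined peaks, and replicate 2 had 2 there. The second class ran from 4 to 17 peaks per window in replicate 1 and from 5 to 24 in replicate 2, and the first window had the fewest among the windows of full length in both, 4 in replicate 1 and 5 in replicate 2.

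**Figure D4:**
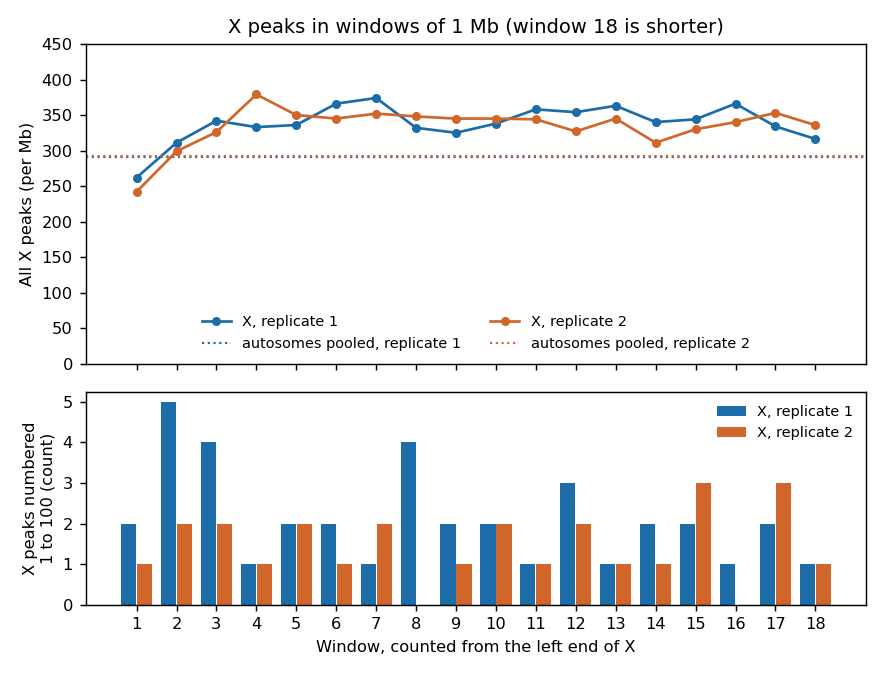
Upper panel, X peaks per Mb (vertical) in 18 windows of 1 Mb counted from the left end of X (horizontal), with dotted lines for the pooled autosomes; lower panel, number of X peaks numbered 1 to 100 in the same windows. In both replicates the first window is lowest, at 262 and 242 per Mb, and the early peaks are scattered over the whole chromosome.

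The middle part of X was not favoured as the middle parts of the autosomes were. Of all X peaks, 31.9%, 34.1% and 34.0% lay in the left, middle and right part in replicate 1, and 32.3%, 34.2% and 33.5% in replicate 2. The middle part of each autosome held more, from 36.4% to 38.9% in replicate 1 and from 36.6% to 40.0% in replicate 2. X was lowest of the 6 chromosomes both times (two-sided exact permutation over 6 chromosomes, p = 0.167, the smallest possible, adjusted p = 0.222). Its exact 95% interval was 32.9 to 35.3 in replicate 1 and 33.0 to 35.4 in replicate 2. The interval of V in replicate 1 and that of II in replicate 2 began at 35.2, so they overlap that of X. All these intervals treat peaks as separate although some overlap others of their own list, so they are too narrow.

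The flat profile held in the classes with enough peaks. The middle part had 34.2% of second-class X peaks in replicate 1 (64 of 187) and 35.7% in replicate 2 (76 of 213), against 40.7% to 48.6% and 39.2% to 46.8% on the autosomes. Above 1000 it had 34.1% in both replicates, against 36.1% to 38.7% and 36.4% to 39.8%. Numbers 1 to 100 were too few to place: 12 of 38 in the middle part in replicate 1 (31.6%, interval 17.5 to 48.7) and 7 of 26 in replicate 2 (26.9%, interval 11.6 to 47.8). Recurrence hardly varied along X, with 48.1%, 48.6% and 47.8% of left, middle and right peaks in replicate 1 and 47.6%, 49.8% and 49.2% in replicate 2, and the intervals of the 3 parts overlap in each replicate.

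**Figure D5:**
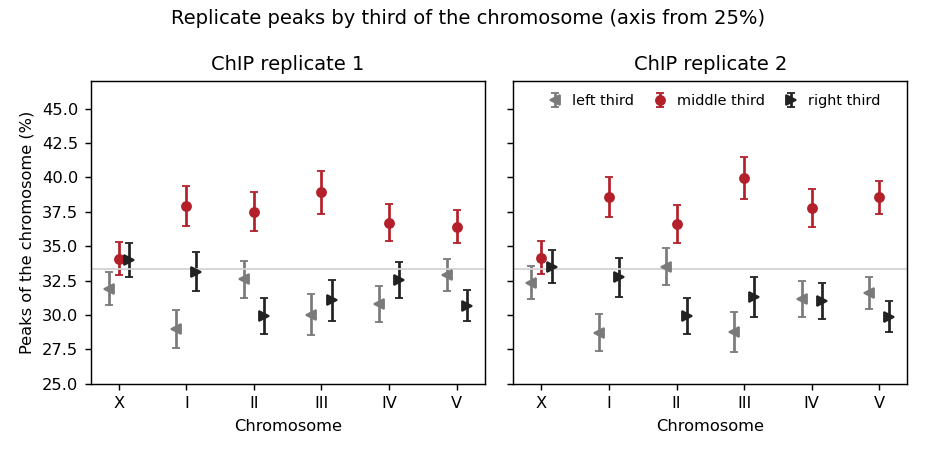
Share of each chromosome's replicate peaks in its left, middle and right part (vertical axis, percent, starting at 25) for ChIP replicates 1 and 2, with exact 95% Clopper-Pearson intervals and a line at 3 equal parts. On X the middle part holds 34.1% and 34.2%, and on each autosome it holds more, between 36.4% and 40.0%.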

How the data were processed

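The labels' protocols describe fixation in 2% formaldehyde, sonication and anti-GFP precipitation. The authors deposited 3 peak lists with a score per peak, 1 for each ChIP sample and 1 combined. Positions are on WormBase WS220, per the file headers, and the deposited files' source column names SPP and IDR (irreproducible discovery rate) as the means of peak calling. The sources used here do not give the aligner, thresholds, use of the input samples or meaning of the score. Peaks were ordered by the number in their name; the score served only to mark the combined peaks tied at the maximum and as an alternative order. Chromosome span ran from base 1 to the end of the last replicate peak (100.2 Mb in all). Midpoints set windows and the 3 equal parts of a chromosome. Intervals cover counting error only, because the peaks of 1 list share 1 library, and depth is unknown. Chromosomes were compared by an exact permutation of X against the 5 autosomes, the p being the share of chromosomes at least as far from the mean of the others as X, with Benjamini-Hochberg adjustment. Named regions were all combined X peaks, the 5 lowest-numbered X peaks of each replicate outside the combined list, those nearest each class bound, and extreme windows. Alternatives covered overlap rules, class bounds, score order, merging, spans, window sizes and single replicates. The members, classes and tests were chosen with earlier results of these data known. Overlap, merging and permutation were tested on simulated data. Python 3.11.15, numpy 2.4.6, scipy 1.17.1, pandas 2.3.3, statsmodels 0.14.6 and matplotlib 3.10.9 were used.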

Additional observations from a re-analysis of the deposited data

How the results depend on the processing

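Of 68 alternatives to 17 values, 52 counted as the same, 15 moved and 1 reversed. The same meant an equal direction, a value within the spread between replicates or 1.5 times the median number, or a small change in r. A single replicate lies within that spread by construction for X recurrence, median gaps and the coefficient of variation, so those labels say nothing about stability. Values here are means over both replicates, and differences from the autosomes are from the mean of the 5. The exact permutation over 6 chromosomes cannot pass 0.05, so its p says nothing about stability. Requiring midpoints within 100 bp lowered recurrence on X to 79.1% (numbers 1 to 100), 38.5% (above 100, up to 1000) and 23.4% (above 1000), against 88.3%, 62.3% and 47.8%. Any partner in the same class, not only the lowest-numbered, gave 55.1%, 4.52% and 46.1%. Sharing 50% of both peaks gave 53.2% and 36.7% in the later classes. Each rule is stricter by construction. X minus autosome recurrence in the second class was -0.53 points, and 0.36 in replicate 1 against -1.42 in replicate 2. In single replicates the ratio of X to autosomal density was 1.15 to 1.17, the X share of numbers 1 to 100 was 26% to 38.0% and of the second class 20.8% to 23.7%. Recurrence ran from 84.2% to 92.3%, 61.5% to 63.1% and 47.5% to 48.2%, and X minus autosomes from 1.19 to 15.9 points in the first class and 2.83 to 3.94 in the last, where the mean of 3.38 became 2.38 with 50% of both peaks shared and 1.01 with midpoints within 100 bp. Median gaps ran from 396 to 569 kb, 47.9 to 63.3 kb and 2.17 to 2.18 kb, and the difference in the middle part from -4.13 to -3.40 points. The share of X in numbers 1 to 50 was 46.0%. Ranked by score, the X share was 34.0% in the first class and 19.2% in the second, against 32.0% and 22.2% by number. Merging raised the median gap above 1000 to 2.65 kb. The coefficient of variation between windows, 8.14% (7.66% to 8.63%), was 12.5% with windows of 0.5 Mb, 7.08% with 2 Mb, 15.5% with starts moved by 0.5 Mb and 5.21% without the end windows; r of 0.69 became 0.84 with moved starts and 0.24 without the ends. The last alternative, and counting the overlapping combined pair once, were chosen after seeing the data. No paired analysis was possible because the inputs' peaks were not analysed here. Depth is unknown, so a peak absent from a list may only be undetected.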
